A study of Homo sapiens with 15 samples.

Results

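HOX genes are the 29 genes of 18244 on these arrays whose symbol is HOX, a cluster letter from A to D and a number. Each was taken from the probe sets naming only that gene, and where it had several, the brightest on average stood for it. RefSeq lists 39 such genes in the human genome. All 10 HOXB, 9 HOXC and 9 HOXD genes were measured, whereas 1 of 11 HOXA genes was (HOXA2) and the other 10 are not analysed here. The study compared gene expression between 5 established human neuroblastoma cell lines on 15 oligonucleotide arrays, with 3 arrays each for KELLY, NGP, BE(2)-C, SH-SY5Y and SK-N-AS. Its title asks how MYCN, a transcription factor gene amplified in many neuroblastomas, shapes transcription. From general knowledge of these lines, NGP, BE(2)-C and KELLY carry MYCN amplification and SK-N-AS and SH-SY5Y do not. All lines were grown in the same serum-containing medium with no treatment or gene alteration named in the labels. Each line comes from a single tumour, and SH-SY5Y and BE(2)-C are clonal sublines, so a difference between lines is not a difference between classes of tumour. The labels number the 3 arrays of a line without naming separate cultures, so p-values reflect the spread over these samples alone, and that spread may be technical.

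HOX genes encode transcription factors with a homeodomain and lie in 4 clusters, HOXA to HOXD. Genes with the same number in different clusters are paralogues and form a paralogue group. In the embryo, genes at one end of a cluster (low numbers) act early and towards the head and those at the other end (high numbers) act late and towards the tail, an order called collinearity. Central groups mark the trunk and groups from about position 9 onwards the lower trunk, limb and tail. Adult cells often keep the HOX pattern of the body region they came from. Neuroblastoma arises from sympathetic precursors of the trunk neural crest.

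Neighbouring posterior HOXD genes gave different patterns over the lines: HOXD13, HOXD11 and HOXD10 were highest in NGP (HOXD10 in 1 of its 2 probe sets), while HOXD12, which lies between HOXD13 and HOXD11, stayed below the median of all values in all 5 lines. HOXD12 was read by 1 probe set, dim in every line, so a silent gene and an unresponsive probe set cannot be told apart. Their promoters are shown so that these neighbours can be read side by side. Each sequence is the 250 bases before the gene's start from RefSeq (GRCh38.p14, + strand), read 5′ to 3′ with CpG dinucleotides in capitals. The windows are chr2:176092471-176092720 for HOXD13, chr2:176099545-176099794 for HOXD12, chr2:176107030-176107279 for HOXD11 and chr2:176116528-176116777 for HOXD10.
HOXD13: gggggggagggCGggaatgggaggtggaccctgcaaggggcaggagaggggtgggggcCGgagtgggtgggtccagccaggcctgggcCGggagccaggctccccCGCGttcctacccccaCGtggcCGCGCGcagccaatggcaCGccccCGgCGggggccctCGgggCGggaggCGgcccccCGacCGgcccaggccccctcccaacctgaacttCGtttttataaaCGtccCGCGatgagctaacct
HOXD12: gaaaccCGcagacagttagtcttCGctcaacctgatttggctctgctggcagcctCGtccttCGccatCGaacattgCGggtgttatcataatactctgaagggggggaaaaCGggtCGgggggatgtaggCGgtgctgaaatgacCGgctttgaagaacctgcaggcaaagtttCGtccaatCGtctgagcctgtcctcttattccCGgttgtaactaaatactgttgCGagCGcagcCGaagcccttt
HOXD11: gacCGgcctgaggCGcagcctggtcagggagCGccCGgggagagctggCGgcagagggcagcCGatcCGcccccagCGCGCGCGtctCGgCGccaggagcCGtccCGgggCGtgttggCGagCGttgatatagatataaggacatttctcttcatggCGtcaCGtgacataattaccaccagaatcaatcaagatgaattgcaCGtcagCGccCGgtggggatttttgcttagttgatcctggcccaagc
HOXD10: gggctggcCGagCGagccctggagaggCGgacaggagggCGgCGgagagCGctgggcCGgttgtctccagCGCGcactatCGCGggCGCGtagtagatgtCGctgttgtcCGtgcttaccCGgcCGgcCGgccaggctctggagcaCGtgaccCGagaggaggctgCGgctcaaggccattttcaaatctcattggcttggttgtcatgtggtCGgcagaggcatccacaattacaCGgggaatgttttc

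The HOXD12 window held 16 CpG dinucleotides and a GC content of 53.2%. The windows of HOXD13, HOXD11 and HOXD10 held 21, 23 and 23 CpG, with 74%, 61.6% and 64% GC. Over the windows of 35116 genes the median was 11 CpG. The TATA box letters TATAAA on the gene's strand were found in the HOXD13 window, in 1 of the 12 HOX genes with a window and in 6.8% of all windows. The letters TGATNNAT, a pattern known for HOX proteins bound with PBX partners, were searched on both strands and found in the HOXD11 window, in 3 of 12 HOX windows and in 6.47% of all windows. A match is a description of these letters and not of binding. Whether CpG or GC content goes with the expression levels was not tested.

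HOXC4 and HOXC5 share a single window in the RefSeq table (chr12:54016638-54016887, GRCh38.p14, + strand, 14 CpG and 50.8% GC), since transcripts of both can start from an upstream exon they share. It is shown because both genes stood above the median of all values in all 5 lines.
HOXC4 and HOXC5: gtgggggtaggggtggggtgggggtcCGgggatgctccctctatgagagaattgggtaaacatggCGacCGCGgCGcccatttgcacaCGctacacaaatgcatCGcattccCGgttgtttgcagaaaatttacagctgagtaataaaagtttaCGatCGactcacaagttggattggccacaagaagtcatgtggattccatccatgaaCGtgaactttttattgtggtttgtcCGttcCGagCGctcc

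Values are intensities on the deposited linear scale. The arrays differ in overall brightness: the mean of a line's array medians ran from 54.4 ± 2.65 in SH-SY5Y to 123 ± 3.23 in SK-N-AS (SD, n = 3 each). Against the mean of all lines, the median of the tested genes was shifted on the log2 scale by 0.69 for SK-N-AS, -0.64 for SH-SY5Y, -0.12 for NGP, 0.49 for BE(2)-C and -0.42 for KELLY. Each difference is therefore given as deposited and again after each array was centred on that median, and only the second is a change relative to the bulk of genes. Correlations between arrays were at least 0.993 within a line and at most 0.892 between lines. Of 12 neuroblastoma markers, 11 had a probe set. All 11 stood at least at the median of all values in SH-SY5Y, NGP, BE(2)-C and KELLY and 8 did in SK-N-AS, where CHGA, CHGB and ELAVL4 fell short. Of 15 measured markers of leukocytes, epithelium, endothelium, fibroblasts and Schwann cells, SK-N-AS had 8 that reached it, BE(2)-C 7, NGP 2 and both SH-SY5Y and KELLY 0. Their summed intensity per array ranged from 15994 to 17580 for SK-N-AS, from 2255 to 2333 for BE(2)-C, from 784 to 816 for NGP, from 435 to 491 for SH-SY5Y and from 487 to 511 for KELLY, and none was at 0. Most of the SK-N-AS sum came from KRT18 (8602 ± 508) and LUM (4976 ± 560). There EPCAM, CDH1, CD14, CD3E, CDH5, COL1A2 and S100B fell short of the median of all values, at 16.8 to 49.7. Of the 8 that reached it, VWF (119 ± 18.7) and PECAM1 (92.5 ± 3.06) lay below the mean of the line's array medians (123).

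Set against the median of all values (an intensity of 80.6), 19 of the 29 HOX genes reached it in at least 1 line and 8 in all 5 lines. Over all genes on the arrays the shares were 69.7% and 44.6%. Genes that reached it in every line were HOXC4, HOXC5, HOXC6, HOXC9, HOXD3, HOXD8, HOXD9 and HOXD10, 4 from each of 2 clusters. By line, SK-N-AS had 15 such genes, SH-SY5Y had 8, NGP had 14, BE(2)-C had 14 and KELLY had 12. The shares over all genes were 63.9%, 50.2%, 56.6%, 61.4% and 54%, in the same order. In bulk RNA, fewer cells of a type and less RNA per cell cannot be told apart.

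The clusters differed in how many members stood above this level. Of HOXB, 3 of 10 did so in any line (HOXB2, HOXB4 and HOXB13), against 8 of 9 for HOXC and 8 of 9 for HOXD. For HOXB4, HOXB13, HOXC8 and HOXC11, which had several probe sets, only the probe set used did so. By line, the HOXC count was 7 for SK-N-AS, 4 for SH-SY5Y, 5 for NGP, 8 for BE(2)-C and 6 for KELLY. HOXD counts were 5, 4, 7, 4 and 6 in the same order, and HOXB counts 3, 0, 2, 2 and 0. BE(2)-C therefore had the highest HOXC count and NGP the highest HOXD count. Set against each array's own median over all probe sets, SK-N-AS fell from 15 genes to 8, below NGP with 14, KELLY with 12, BE(2)-C with 11 and SH-SY5Y with 9. The share of all genes at that level is not given here. On that level HOXC still counted highest in BE(2)-C (7) and HOXD in NGP (7).

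**Figure D1:**
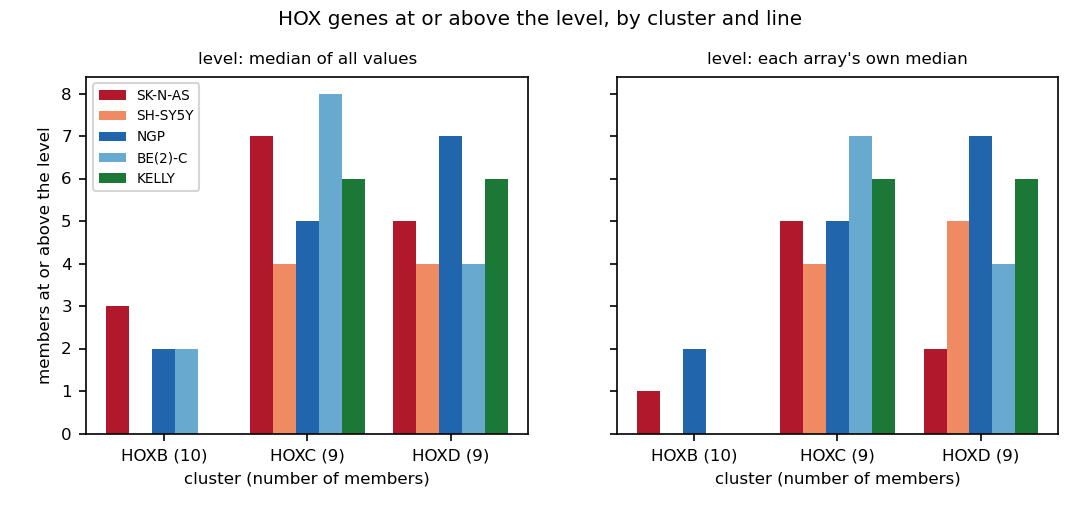
Bars give the number of HOXB, HOXC and HOXD genes whose line mean is at or above a level, for each of the 5 lines, with the median of all values (left) or each array's own median (right) as the level. HOXC is highest in BE(2)-C (8 and 7) and HOXD in NGP (7 and 7) at both levels, whereas the SK-N-AS bars drop at the second.

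The 10 HOX genes below the median of all values in every line were HOXA2, HOXB1, HOXB3, HOXB5, HOXB6, HOXB7, HOXB8, HOXB9, HOXC12 and HOXD12. Their line means ranged from 11.6 for HOXD12 in SK-N-AS to 79.8 for HOXB3 in BE(2)-C. HOXB3 thus lay just outside the level in BE(2)-C, while HOXB4 in NGP (81.9 ± 9.0), HOXB13 in NGP (82.0 ± 10.3), HOXC10 in SK-N-AS (82.3 ± 8.05), HOXD1 in KELLY (81.6 ± 2.78) and HOXC9 in SH-SY5Y (84.2 ± 2.47) lay just inside it. These 10 genes were not tested, since the filter asked for this level in at least 1 line, and a value below it is a dim probe set and not evidence of absence.

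By paralogue group, every measured member reached the median of all values in at least 1 line for groups 4 (HOXB4, HOXC4, HOXD4), 10, 11 and 13 (HOXB13, HOXC13, HOXD13). Of these, HOXB4, HOXC11 and HOXB13 did so only in the probe set used and not in their others. In groups 1, 2, 3, 5 and 6 it was 1 of 2, in groups 8 and 9 it was 2 of 3, and in group 7 (HOXB7 alone) and group 12 it was 0 of 1 and 0 of 2. Grouped by position, 6 members lie in groups 1 to 3, 11 in groups 4 to 8 and 12 in groups 9 to 13. SK-N-AS had 2, 7 and 6 of them above the level, SH-SY5Y had 1, 4 and 3, NGP had 2, 6 and 6, BE(2)-C had 1, 6 and 7, and KELLY had 2, 5 and 5. Paralogues did not share their highest line throughout: of group 10, HOXC10 was highest in BE(2)-C and HOXD10 in NGP, and of group 11, HOXC11 in BE(2)-C and HOXD11 in NGP, on both scales. For group 10 this holds for the HOXD10 probe set used. The other HOXD10 probe set was highest in BE(2)-C (166 ± 22.6, against 146 ± 14.9 in NGP), as HOXC10 was. Of group 13, HOXD13 was highest in NGP on both scales, while HOXB13 and HOXC13 were highest in SK-N-AS as deposited and in KELLY with centred arrays. The highest line was the same on both scales for 8 of the 19 genes that reached the level (HOXB2, HOXC6, HOXC9, HOXC10, HOXC11, HOXD10, HOXD11 and HOXD13).

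**Figure D2:**
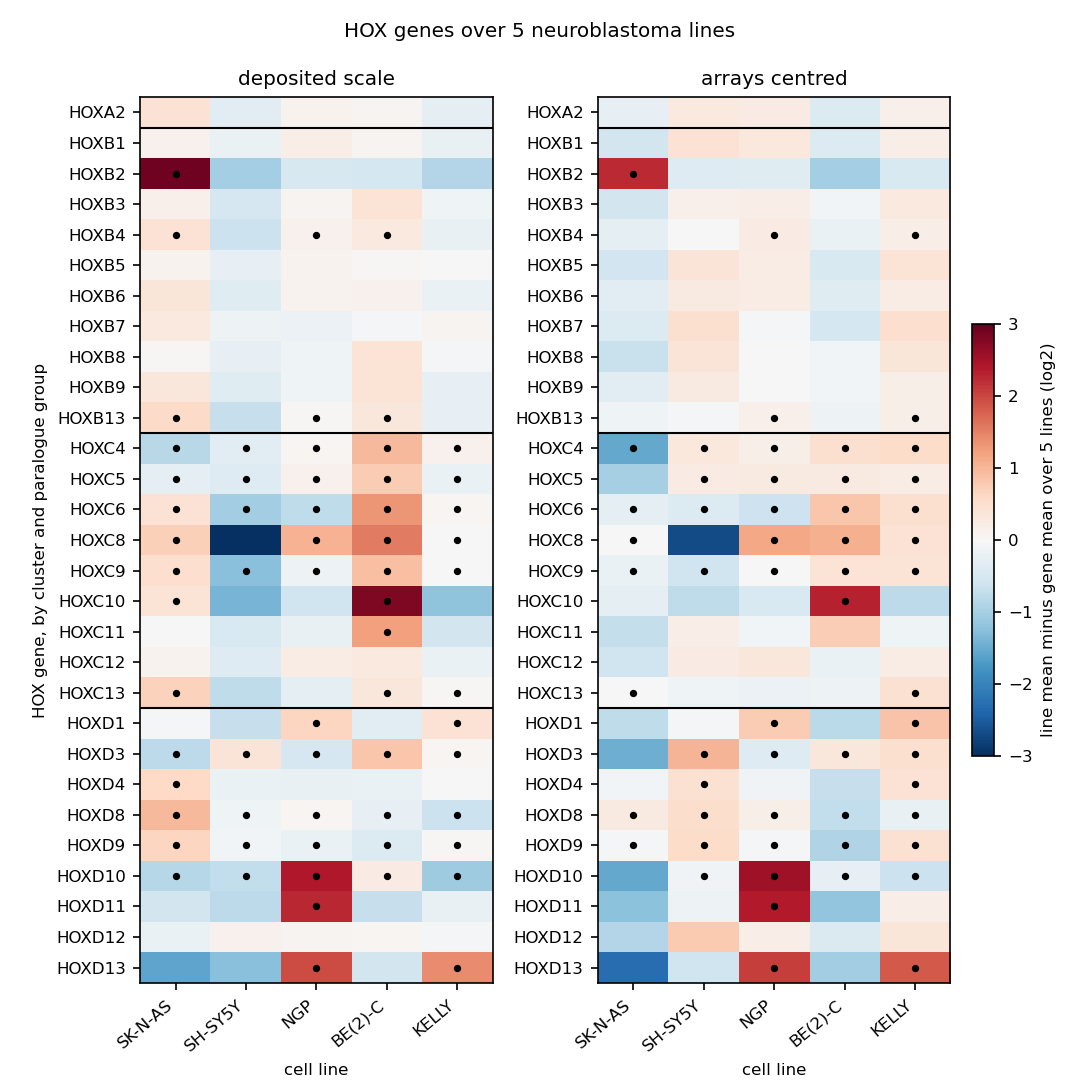
Colour gives each HOX gene's line mean minus its mean over the 5 lines (log2, colours end at 3 in either direction) for the 29 genes in cluster and paralogue order, on the deposited scale (left) and with arrays centred (right). Black dots mark line means at least at the median of all values. HOXC8 is low in SH-SY5Y, HOXC10 high in BE(2)-C, HOXB2 high in SK-N-AS and HOXD10 and HOXD11 high in NGP in both panels.

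Differences between lines were tested with limma over all 12721 tested genes in each of the 10 pairs of lines, and called where the adjusted p (Benjamini-Hochberg) was under 0.05 and the log2 difference was 1 or more in size. Of the 19 HOX genes tested, 18 were called in at least 1 pair, against 91.4% of all tested genes, and HOXD4 was not called on this scale. With centred arrays 16 were called, against 54.6% of all tested genes, and 15 were called on both scales. HOXC8, HOXC10, HOXB2, HOXD13, HOXD10 and HOXD11 had the widest ranges, with highest minus lowest line means from 4.87 down to 3.05 on the log2 scale, where the median over all tested genes was 1.71. As every member tested had to be bright in some line, these counts are read against the same filter over all genes and not as counts over all 29 members.

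HOXB2 read 240.4, 275 and 254 on the 3 SK-N-AS arrays, 16.9, 16.2 and 14.0 in SH-SY5Y, 23.3, 28.7 and 18.7 in NGP, 21.5, 23.7 and 22.2 in BE(2)-C and 18.3, 20.8 and 14.1 in KELLY. All 3 SK-N-AS arrays lay above every array of the other lines, and the other lines were dim. HOXB2, which patterns the hindbrain and belongs to an anterior paralogue group, was higher in SK-N-AS than in NGP, the second highest line, by 3.41 (SE 0.16, limma adjusted p = 2.93e-16) on the log2 scale, and by 2.59 with centred arrays. All 4 of its contrasts with SK-N-AS were called on both scales, from 3.41 to 3.95 as deposited and from 2.59 to 3.25 centred. SK-N-AS was also the line with the most markers of other cell types above the median, with 8 of 15, where 63.9% of all genes stood above it. Their summed intensity was at least 15994 there, against at most 2333 elsewhere. KRT18 and LUM made up most of that sum, while other markers from the same lists were dim. The part of these 15 markers in the HOXB2 level was not tested.

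The other HOXB genes that reached the level, HOXB4 and HOXB13, were brightest in SK-N-AS, where they lay close to the median of all values. Both did so only in the probe set used. The other HOXB4 probe set had line means from 31.4 to 41.4, and the other HOXB13 probe sets from 20.3 to 50.3. HOXB4 read 96.3, 112 and 96.0 on the 3 SK-N-AS arrays, 56.6, 46.6 and 41.4 in SH-SY5Y, 85.5, 88.4 and 71.6 in NGP, 94.5, 98.4 and 85.8 in BE(2)-C and 62.7, 69.4 and 61.9 in KELLY. HOXB13 read 100.3, 135 and 124 on the 3 SK-N-AS arrays, 53.7, 44.5 and 48.9 in SH-SY5Y, 86.7, 89.1 and 70.2 in NGP, 103, 104 and 94.5 in BE(2)-C and 57.6, 73.4 and 70.0 in KELLY. For both genes every SK-N-AS array lay above every SH-SY5Y array, while the SK-N-AS and BE(2)-C arrays overlapped. SK-N-AS exceeded SH-SY5Y by 1.06 (SE 0.12, limma adjusted p = 8.09e-09) for HOXB4, a gene of blood stem cells, and by 1.27 (SE 0.13, limma adjusted p = 7.88e-10) for HOXB13, a gene of the prostate and tail bud. With centred arrays the differences turned to -0.27 and -0.069 and neither was called. The HOXB4 call was also lost when SK-N-AS replicate 2 was left out (0.99), as it was without SH-SY5Y replicate 3 (0.96).

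HOXC8, which specifies brachial and thoracic identity in the spinal cord, had the widest range of all HOX genes. HOXC8 read 465, 411 and 463 on the 3 SK-N-AS arrays, 25.9, 27.4 and 26.0 in SH-SY5Y, 526, 592 and 558 in NGP, 841, 811 and 755 in BE(2)-C and 310.1, 249 and 271 in KELLY. The SH-SY5Y arrays were dim and lay below all 12 others, which were all at 249 or above. BE(2)-C exceeded SH-SY5Y by 4.87 (SE 0.089, limma adjusted p = 6.49e-24), SK-N-AS did so by 4.03 (SE 0.089, limma adjusted p = 7.45e-23) and KELLY by 3.33 (SE 0.089, limma adjusted p = 1.89e-20). With centred arrays these were 3.74, 2.69 and 3.11, all called. A second HOXC8 probe set was dimmer and put the lines in the same order, from 16.7 ± 1.11 in SH-SY5Y to 76.9 ± 5.65 in BE(2)-C.

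HOXC9 read 296, 270.3 and 292 on the 3 SK-N-AS arrays, 82.3, 87.0 and 83.3 in SH-SY5Y, 190.0, 186 and 169 in NGP, 411, 359 and 363 in BE(2)-C and 172, 209 and 216 in KELLY. SH-SY5Y was again lowest and BE(2)-C highest, with no overlap between either of them and any other line. HOXC9, a determinant of thoracic motor neuron identity, was higher in BE(2)-C than in SH-SY5Y by 2.15 (SE 0.094, limma adjusted p = 1.08e-16) and in KELLY than in SH-SY5Y by 1.23 (SE 0.094, limma adjusted p = 2.23e-11). All 4 contrasts of SH-SY5Y were called on the deposited scale, from -1.10 to -2.15, but they ran from -0.42 to -1.02 with centred arrays and not all were called.

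HOXC10 and HOXC11, posterior genes of lumbar and more caudal levels, were highest in BE(2)-C. HOXC10 read 77.3, 91.6 and 78.0 on the 3 SK-N-AS arrays, 21.7, 25.1 and 21.1 in SH-SY5Y, 42.4, 47.5 and 33.1 in NGP, 442, 438 and 412 in BE(2)-C and 25.9, 27.0 and 24.8 in KELLY. HOXC11 read 37.5, 30.2 and 41.7 on the 3 SK-N-AS arrays, 29.0, 25.3 and 25.5 in SH-SY5Y, 34.6, 36.7 and 24.2 in NGP, 94.5, 81.8 and 86.5 in BE(2)-C and 24.6, 24.7 and 24.3 in KELLY. For both genes the 3 BE(2)-C arrays lay above all 12 others. HOXC10 was higher in BE(2)-C than in SK-N-AS, the second highest line, by 2.38 (SE 0.13, limma adjusted p = 6.54e-15) and by 2.58 centred. It was also higher in SK-N-AS than in SH-SY5Y by 1.82 (SE 0.13, limma adjusted p = 5.77e-13), a call lost with centred arrays (0.48). HOXC11 just reached the median of all values in BE(2)-C, where it exceeded SK-N-AS by 1.25 (SE 0.15, limma adjusted p = 5.94e-08) and KELLY by 1.79 (SE 0.15, limma adjusted p = 5.32e-11). With centred arrays the difference from KELLY was 0.88 and was not called, and a second HOXC11 probe set was at 36.0 ± 5.97 in BE(2)-C and lower in the other lines. In BE(2)-C 7 of 15 markers of other cell types stood above the median of all values, against 61.4% of all genes, and their part in these levels was not tested.

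HOXC6 read 1677, 1456 and 1808 on the 3 SK-N-AS arrays, 552, 555 and 657 in SH-SY5Y, 746, 724 and 694 in NGP, 3380.4, 2867 and 2866 in BE(2)-C and 1181, 1374 and 1257 in KELLY. HOXC4 read 589, 466 and 492 on the 3 SK-N-AS arrays, 692, 711 and 781 in SH-SY5Y, 1104, 919 and 861 in NGP, 1774, 1791 and 1791 in BE(2)-C and 976, 1009.9 and 1042 in KELLY. Both genes were bright on every array and brightest in BE(2)-C, whose arrays did not overlap with those of any other line. HOXC6, which acts in the upper trunk and limb-bud region, was higher in BE(2)-C than in SH-SY5Y by 2.37 (SE 0.092, limma adjusted p = 1.39e-17), or 1.23 centred. HOXC4, a neck-level gene, was lowest in SK-N-AS, and BE(2)-C exceeded SK-N-AS by 1.80 (SE 0.092, limma adjusted p = 4.01e-15), or 2.00 centred. With centred arrays, HOXC4 was lower in SK-N-AS than in each other line by differences from -1.71 to -2.09, all called.

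HOXC5 read 132, 123 and 113 on the 3 SK-N-AS arrays, 115, 108 and 122 in SH-SY5Y, 169.7, 176 and 154 in NGP, 252, 276 and 238 in BE(2)-C and 129.7, 124 and 142 in KELLY. HOXC13 read 158, 126 and 125 on the 3 SK-N-AS arrays, 67.4, 43.0 and 40.2 in SH-SY5Y, 62.0, 73.2 and 67.6 in NGP, 103, 96.6 and 118 in BE(2)-C and 91.0, 80.3 and 85.4 in KELLY. HOXC5 was highest in BE(2)-C without overlap, and HOXC13, a gene of hair and nail, was highest in SK-N-AS without overlap. HOXC5 was higher in BE(2)-C than in SH-SY5Y by 1.14 (SE 0.094, limma adjusted p = 2.66e-11), and this difference was 0.0074 with centred arrays. Centred HOXC5 was instead lower in SK-N-AS than in each other line, by differences from -1.22 to -1.25. HOXC13 was higher in SK-N-AS than in SH-SY5Y by 1.45 (SE 0.15, limma adjusted p = 9.08e-10) and by 0.12 centred, which was not called.

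HOXD13, HOXD11 and HOXD10, which pattern the limb and digits and the lower body axis, were all highest in NGP (HOXD10 in 1 of its 2 probe sets). HOXD13 read 32.9, 29.7 and 38.1 on the 3 SK-N-AS arrays, 45.4, 41.7 and 40.1 in SH-SY5Y, 386, 405 and 400.0 in NGP, 79.9, 60.7 and 69.3 in BE(2)-C and 260.1, 289 and 279 in KELLY. NGP and KELLY were both high with no overlap between them, BE(2)-C was intermediate, and SK-N-AS and SH-SY5Y were lowest. HOXD13 was higher in NGP than in SK-N-AS by 3.53 (SE 0.11, limma adjusted p = 6.54e-20) and in KELLY than in SK-N-AS by 3.01 (SE 0.11, limma adjusted p = 1.54e-18). KELLY exceeded SH-SY5Y by 2.68 (SE 0.11, limma adjusted p = 1.01e-16). NGP exceeded KELLY by 0.52 (SE 0.11, limma adjusted p = 1.64e-04), below the fold required for a call. BE(2)-C exceeded SK-N-AS by 1.04 (SE 0.11, limma adjusted p = 5.13e-09), a call lost without SK-N-AS replicate 2 (0.95) or BE(2)-C replicate 1 (0.94). Centred, NGP and KELLY were above SK-N-AS by 4.35 and 4.12. A second HOXD13 probe set gave 347 ± 31.5 for NGP, 210.0 ± 21.5 for KELLY, 55.0 ± 4.31 for BE(2)-C, 41.6 ± 4.67 for SH-SY5Y and 35.4 ± 5.47 for SK-N-AS, which is the same order.

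HOXD11 read 28.9, 36.4 and 39.2 on the 3 SK-N-AS arrays, 30.4, 27.6 and 28.6 in SH-SY5Y, 218, 293 and 234 in NGP, 29.4, 37.1 and 27.0 in BE(2)-C and 40.2, 39.9 and 50.7 in KELLY. HOXD10 read 97.0, 100.1 and 113 on the 3 SK-N-AS arrays, 116, 100.4 and 115 in SH-SY5Y, 1071, 1010.1 and 913 in NGP, 239.7, 224 and 206 in BE(2)-C and 90.7, 81.3 and 92.5 in KELLY. For both genes the NGP arrays lay above all 12 others, and unlike HOXD13 neither was high in KELLY. HOXD11 was higher in NGP than in KELLY, the second highest line, by 2.48 (SE 0.15, limma adjusted p = 1.52e-13) and by 2.18 centred. HOXD10, a gene of lumbar motor neurons and the limb, was higher in NGP than in BE(2)-C by 2.16 (SE 0.096, limma adjusted p = 2.48e-16) and than in KELLY by 3.49 (SE 0.096, limma adjusted p = 2.30e-20), or 2.77 and 3.19 centred. A second HOXD10 probe set did not show this: it read 146 ± 14.9 in NGP, 139 ± 18.6 in SK-N-AS and 166 ± 22.6 in BE(2)-C. With the mean of both probe sets, NGP exceeded BE(2)-C by 0.99, and the call was lost. HOXD12, between HOXD13 and HOXD11, had line means from 11.6 to 14.9 in its 1 probe set, in NGP 14.2 ± 0.822.

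**Figure D3:**
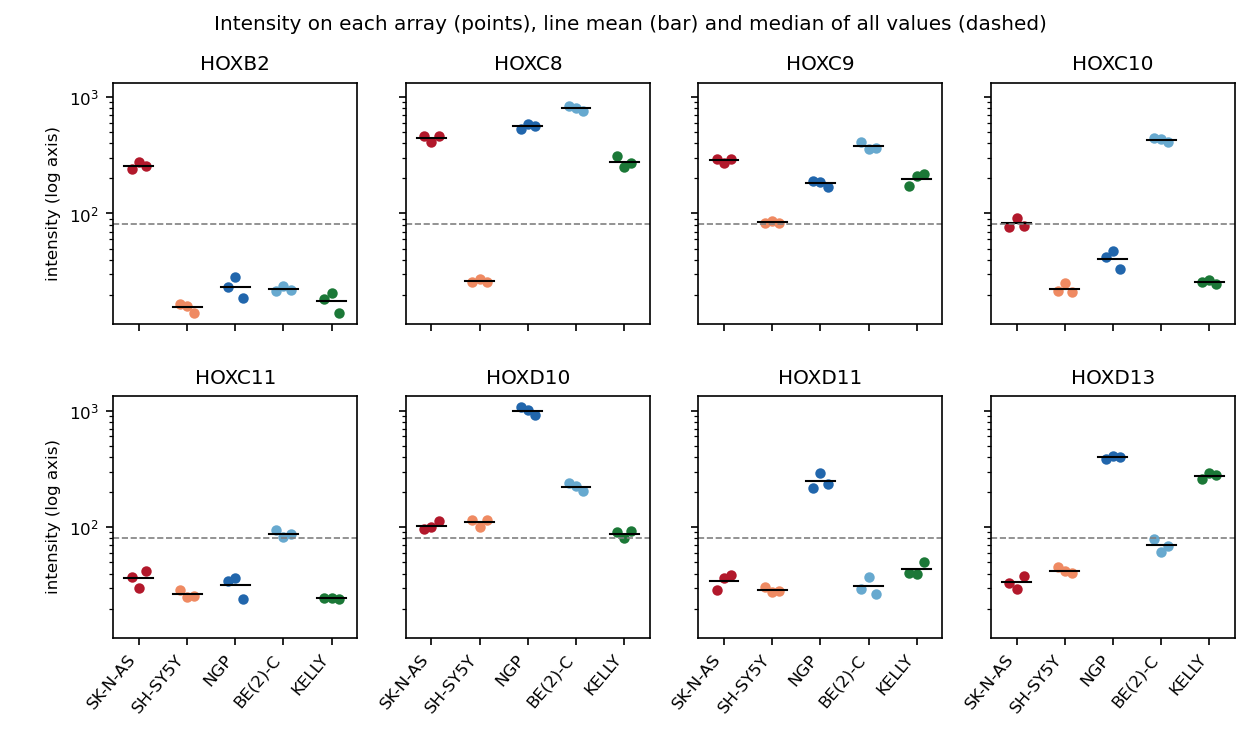
Points give the intensity on each of the 15 arrays (log axis) for the 7 HOX genes that mark a line on the deposited scale and HOXD13, bars the line mean and the dashed line the median of all values. SH-SY5Y alone is dim for HOXC8, SK-N-AS alone is bright for HOXB2, and HOXD13 is high in both NGP and KELLY while HOXD10 and HOXD11 are high in NGP.

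HOXD3 read 92.5, 92.4 and 99.8 on the 3 SK-N-AS arrays, 235, 199.6 and 205 in SH-SY5Y, 131, 112 and 103 in NGP, 337, 279 and 267 in BE(2)-C and 158, 172 and 184 in KELLY. Every SK-N-AS array lay below every array of the other lines, and BE(2)-C lay above all of them. HOXD3, an anterior gene of the upper cervical region, was higher in BE(2)-C than in SK-N-AS by 1.62 (SE 0.11, limma adjusted p = 5.49e-13) and in SH-SY5Y than in SK-N-AS by 1.16 (SE 0.11, limma adjusted p = 1.42e-10). With centred arrays SK-N-AS was lower than every other line, and SH-SY5Y exceeded it most, by 2.49.

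HOXD8 read 1440.1, 1127 and 1471 on the 3 SK-N-AS arrays, 642, 559.7 and 686 in SH-SY5Y, 759, 664 and 699 in NGP, 586, 585 and 545 in BE(2)-C and 415, 436 and 447 in KELLY. HOXD9 read 329, 344 and 364 on the 3 SK-N-AS arrays, 203, 189 and 239 in SH-SY5Y, 189, 202 and 193 in NGP, 187, 171 and 147 in BE(2)-C and 222, 226 and 239 in KELLY. Both genes were brightest in SK-N-AS with no overlap with the other lines. HOXD8, a trunk gene, was higher in SK-N-AS than in KELLY by 1.63 (SE 0.095, limma adjusted p = 2.60e-14) and than in SH-SY5Y by 1.09 (SE 0.095, limma adjusted p = 6.23e-11). Centred, these became 0.51 and -0.24, the second with its direction turned and neither called. HOXD9 was higher in SK-N-AS than in BE(2)-C by 1.04 (SE 0.097, limma adjusted p = 5.10e-10), which was 0.84 centred and not called. It was not called either without BE(2)-C replicate 3 (0.95). The second HOXD8 probe set ran from 1188 ± 60.3 in SK-N-AS to 339 ± 4.79 in KELLY, and the second HOXD9 probe set was also highest in SK-N-AS, at 181 ± 8.65. Both HOXD8 probe sets are of the kinds that can match several transcripts, so HOXD8 drops out when such probe sets are left out.

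HOXD1 read 54.7, 57.9 and 61.9 on the 3 SK-N-AS arrays, 37.4, 32.6 and 43.0 in SH-SY5Y, 91.9, 110.1 and 84.3 in NGP, 44.6, 50.5 and 50.5 in BE(2)-C and 84.8, 80.6 and 79.6 in KELLY. HOXD4 read 107, 92.7 and 98.7 on the 3 SK-N-AS arrays, 61.3, 51.8 and 57.0 in SH-SY5Y, 52.9, 56.9 and 56.0 in NGP, 47.8, 56.6 and 66.9 in BE(2)-C and 62.3, 73.2 and 61.6 in KELLY. HOXD1 was high in NGP and KELLY, and HOXD4 in SK-N-AS, each at about the median of all values. The NGP and KELLY arrays overlapped for HOXD1, and the SK-N-AS arrays lay above all others for HOXD4. HOXD1, the most anterior member of its cluster, was higher in NGP than in SH-SY5Y by 1.32 (SE 0.12, limma adjusted p = 5.64e-10) and in KELLY than in SH-SY5Y by 1.10 (SE 0.12, limma adjusted p = 1.91e-08), and these were 0.80 and 0.88 centred and not called. HOXD4 was higher in SK-N-AS than in NGP by 0.83 (SE 0.12, limma adjusted p = 8.17e-07), short of the fold for a call, and 0.018 centred. It was the tested member called in no pair on the deposited scale, and with centred arrays it was called in 2 pairs.

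**Figure D4:**
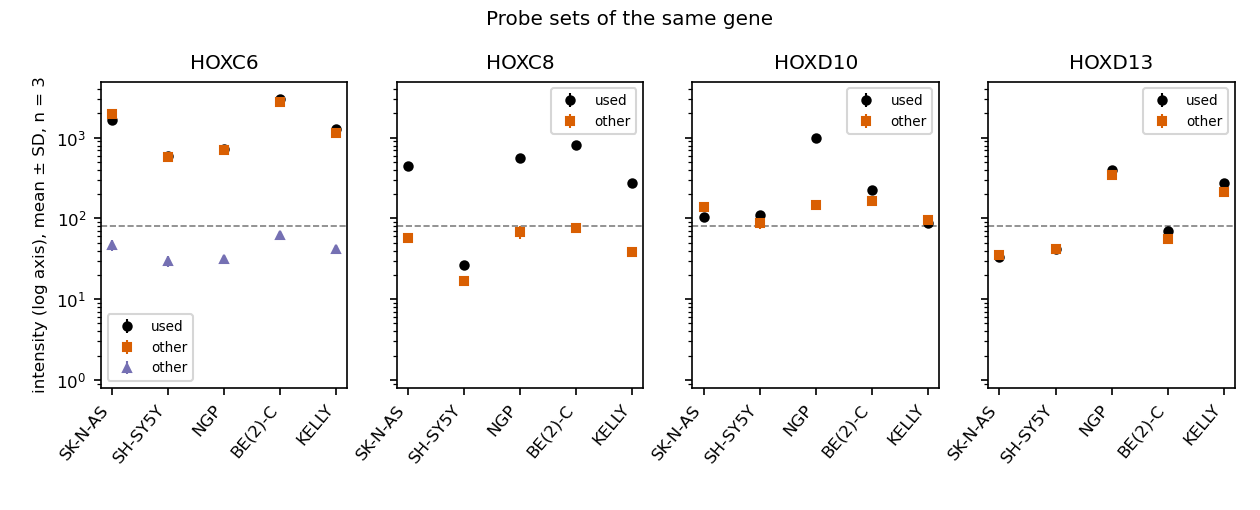
Mean ± SD of intensity (n = 3, log axis) in each line for every probe set of HOXC6, HOXC8, HOXD10 and HOXD13, where "used" is the probe set that stands for the gene and the dashed line is the median of all values. HOXD13 probe sets run alike, whereas the other HOXD10 probe set stays at 146 in NGP against 998 for the one used.

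The pairs of lines differed in how many of the 19 tested HOX genes were called, and the direction of the calls moved with the scale. The median log2 difference of these genes was 0.80 for SK-N-AS minus SH-SY5Y, against 1.23 over all tested genes, -0.40 against 0.16 for SK-N-AS minus BE(2)-C, and -0.30 against -0.54 for NGP minus BE(2)-C. Between SK-N-AS and SH-SY5Y, 10 members were called, against 68.5% of all tested genes. 9 were higher in SK-N-AS, against 64.2% of all tested genes, and 1 lower, against 4.28%. Centring gave 8 (2 higher, 6 lower), against 25.9%. The 1 lower member was HOXD3. Between SK-N-AS and NGP, 5 members were called, against 43.9% of all tested genes. 2 were higher in SK-N-AS, against 36.5% of all tested genes, and 3 lower, against 7.45%. Centring gave 9 (1 higher, 8 lower), against 30.1%. HOXB2 and HOXC6 were the higher members on the deposited scale. Between SK-N-AS and BE(2)-C, 10 members were called, against 25.6% of all tested genes. 3 were higher in SK-N-AS, against 15.8% of all tested genes, and 7 lower, against 9.79%. Centring gave 11 (2 higher, 9 lower), against 25.1%. HOXB2, HOXD8 and HOXD9 were higher and the 7 lower members were HOXC4, HOXC5, HOXC10, HOXC11, HOXD3, HOXD10 and HOXD13. Between SK-N-AS and KELLY, 4 members were called, against 54.4% of all tested genes. 3 were higher in SK-N-AS, against 49.1% of all tested genes, and 1 lower, against 5.27%. Centring gave 7 (1 higher, 6 lower), against 29.1%. HOXB2, HOXC10 and HOXD8 were higher and HOXD13 lower.

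Between SH-SY5Y and NGP, 6 members were called, against 23% of all tested genes. 0 were higher in SH-SY5Y, against 4.17% of all tested genes, and 6 lower, against 18.8%. Centring gave 5 (1 higher, 4 lower), against 16.2%. Between SH-SY5Y and BE(2)-C, 10 members were called, against 56.1% of all tested genes. 0 were higher in SH-SY5Y, against 2.48% of all tested genes, and 10 lower, against 53.6%. Centring gave 8 (4 higher, 4 lower), against 16.5%. Between SH-SY5Y and KELLY, 5 members were called, against 15.7% of all tested genes. 0 were higher in SH-SY5Y, against 5.32% of all tested genes, and 5 lower, against 10.4%. Centring gave 3 (0 higher, 3 lower), against 14.9%. HOXC8 and HOXC9 were lower in SH-SY5Y in all 3 of these pairs on the deposited scale. Between NGP and BE(2)-C, 8 members were called, against 31.4% of all tested genes. 3 were higher in NGP, against 5.13% of all tested genes, and 5 lower, against 26.3%. Centring gave 6 (4 higher, 2 lower), against 19.3%. HOXD10, HOXD11 and HOXD13 were higher in NGP, and HOXC6, HOXC9, HOXC10, HOXC11 and HOXD3 lower. Between NGP and KELLY, 3 members were called, against 16.1% of all tested genes. 3 were higher in NGP, against 11.7% of all tested genes, and 0 lower, against 4.47%. Centring gave 3 (2 higher, 1 lower), against 14.1%. The 3 were HOXC8, HOXD10 and HOXD11. Between BE(2)-C and KELLY, 6 members were called, against 42.5% of all tested genes. 5 were higher in BE(2)-C, against 39.2% of all tested genes, and 1 lower, against 3.34%. Centring gave 6 (1 higher, 5 lower), against 17.4%. The member lower in BE(2)-C on the deposited scale was HOXD13.

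A gene was said to mark a line when all 4 of its contrasts with that line were called with the same sign. On the deposited scale 7 HOX genes did so, against 25.5% of all tested genes: HOXB2 for SK-N-AS (12.6% of all tested genes), HOXC10 and HOXC11 for BE(2)-C (3.46%) and HOXD10 and HOXD11 for NGP (1.67%) as higher, and HOXC8 and HOXC9 for SH-SY5Y (3.95%) as lower. HOXC9 and HOXC11 no longer did with a pseudocount of 16, and HOXC10, HOXC8, HOXB2, HOXD10 and HOXD11 still did. With centred arrays 9 did, against 19% of all tested genes. HOXB2, HOXC8, HOXC10, HOXD10 and HOXD11 marked the same line on both scales. HOXC4, HOXC5, HOXD3 and HOXD13 marked SK-N-AS as lower with centred arrays alone (5.56% of all tested genes did), by differences from -1.09 to -2.49 for HOXD3 and from -1.24 to -4.35 for HOXD13. KELLY was marked by none of the HOX genes on either scale.

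**Figure D5:**
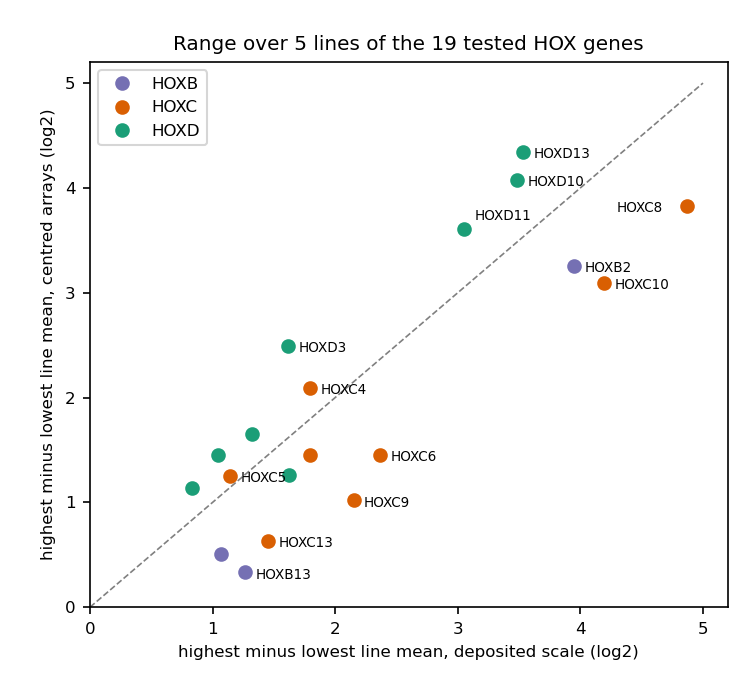
Each point is 1 of the 19 tested HOX genes, with its highest minus lowest line mean on the deposited scale (x axis, log2) and with arrays centred (y axis, log2), coloured by cluster, and the dashed line marks equal ranges. The range was smaller with centred arrays for 10 of 19 genes, and HOXC8, HOXC10, HOXB2, HOXD10, HOXD11 and HOXD13 have wide ranges on both.

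No HOX gene separated the lines by MYCN class under the limma calls, which asked each of the 6 contrasts between an amplified and a non-amplified line to be called, and in the same direction. Of all tested genes 1.03% did, and 1.12% with centred arrays, where again 0 HOX genes did. At an unadjusted p under 0.05 in all 6 contrasts and no fold, 2 HOX genes had the same sign throughout (HOXC4 and HOXD13, both higher in the amplified lines), against 4.86% of all tested genes. With centred arrays it was 1 (HOXC8), against 11.6%. HOXC8 was high in SK-N-AS as well as in the amplified lines and low in SH-SY5Y, and HOXD13 in BE(2)-C lay nearer to SH-SY5Y than to NGP or KELLY.

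HOX proteins bind DNA with partners of the TALE homeodomain family, the PBX, MEIS and PKNOX proteins. Of 9 listed partners 8 had a probe set and all 8 were tested. In at least 1 pair 7 were called and 4 with centred arrays, against 91.4% and 54.6% of all tested genes. None marked a line under the limma calls on the deposited scale, against 25.5% of all tested genes. All 8 did at an unadjusted p under 0.05 with no fold. The share of all tested genes at that looser level is not given here, so this count is not a result about the partners. Their median range over the lines was 1.38, against 1.71 over all tested genes. PKNOX1 was highest in BE(2)-C (342 ± 17.9) and lowest in SH-SY5Y (107 ± 14.2). MEIS1 was high in SK-N-AS (552 ± 40.0) and NGP (453 ± 26.1) and low in SH-SY5Y (183 ± 19.2) and BE(2)-C (184 ± 15.5). PBX3 and MEIS2 were both highest in BE(2)-C (2553 ± 110.3 and 2907 ± 298) and lowest in KELLY (922 ± 23.8 and 1083 ± 28.9). With centred arrays MEIS1 marked BE(2)-C as lower.

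HOX clusters are held active by Trithorax-type complexes (with KMT2A, MEN1, WDR5) and silent by Polycomb complexes (with EZH2, SUZ12, BMI1, CBX proteins), and are induced by retinoic acid through its receptors. Of 32 listed regulators 29 had a probe set and 23 were tested. In at least 1 pair 21 were called (91.3% of those tested, against 91.4% of all tested genes), and with centred arrays 12 (52.2%, against 54.6%). The median range of the 23 was 1.52 on the log2 scale, against 1.71 over all tested genes. CBX7, a Polycomb subunit, stood at 357 ± 27.3 in SK-N-AS and at most 84.4 ± 5.83 elsewhere (KELLY). RARB, a retinoic acid receptor, was high in SK-N-AS (284 ± 18.0) and NGP (233 ± 21.8) and lowest in BE(2)-C (58.5 ± 3.14). DOT1L, a histone methyltransferase, ran from 96.8 ± 11.5 in SH-SY5Y to 403 ± 30.8 in BE(2)-C, and WDR5 from 461 ± 9.66 in KELLY to 1808 ± 167 in BE(2)-C. CBX7, MEN1 and BMI1 marked SK-N-AS as higher on the deposited scale, 3 of 23 where 12.6% of all tested genes did, and none of them with centred arrays, where PSIP1 and SUZ12 marked SK-N-AS as lower and RARB marked BE(2)-C as lower. CDX1, CDX2, CDX4, CYP26A1, CYP26B1 and ZBTB16 were below the filter.

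Of 22 other genes listed within the clusters, mostly antisense and long noncoding RNAs, 4 had a probe set naming that gene and 2 were tested. EVX1 and EVX2, homeobox genes at the posterior ends of HOXA and HOXD, were each called in 2 pairs on the deposited scale and in 0 with centred arrays, where both still had a pair at an unadjusted p under 0.05. The share of all tested genes at that looser level is not given here. EVX2, the neighbour of HOXD13, read 86.9 ± 4.98 in NGP and 138 ± 3.34 in BE(2)-C, its highest line, so it was not highest where HOXD13 was. PRAC1 and HOXB-AS3 were dim in all 5 lines.

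The 10 nearest measured genes flanking each cluster (5 on each side) were counted against the median of all values. Over all genes on the arrays, the share that reached it ran from 50.2% in SH-SY5Y to 63.9% in SK-N-AS. At HOXA 7 reached it in NGP and SK-N-AS, 6 in BE(2)-C and 5 in SH-SY5Y and KELLY, and at HOXC 9 did in SK-N-AS and BE(2)-C and 7 in each other line. At HOXB 7 or 8 of 10 flanking genes did in every line, while at most 3 of 10 HOXB genes did. At HOXD 8 or 9 of 10 did. Among the HOXD flanking genes SK-N-AS was the highest line for 6 of 10 and NGP for 4, and with centred arrays for 1 and 5. MTX2 and NFE2L2 marked SK-N-AS as higher on the deposited scale (12.6% of all tested genes did) and not with centred arrays. Flanking genes of other clusters also marked SK-N-AS as higher, on both scales: SNX10 and HIBADH at HOXA and SMUG1 at HOXC. CHRNA1, a subunit of the muscle acetylcholine receptor, read 82.1 ± 6.51 in NGP and at most 20.1 ± 1.98 in another line (SK-N-AS). It marked NGP as higher on both scales, where 1.67% of all tested genes did as deposited. It passed the filter (80.6) only through NGP. CHN1 (2099 ± 96.9) and HNRNPA3 (4738 ± 23.6) were also highest in NGP, with 1658 ± 123 and 2966 ± 222 in their second highest lines. CHRNA1, CHN1 and HNRNPA3 were singled out after their values were seen.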

How the data were processed

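The values are the authors' deposited intensity values, on a linear scale, 1 per probe set and array. The authors used MAS5, per the submitters' processing notes. Version, scaling and background correction were not given in the sources used here. Of 49494 probe sets, 45277 name 1 gene and 1333 several, which name none here. The probe set with the highest mean stood for each of 18244 genes, and 13 HOX genes had several. Values were transformed as log2(intensity + 1). Genes were tested if their highest line mean reached the median of all values (log2 6.35), which 12721 did. limma 3.58.1 (R 4.3.3) fitted 1 mean per line to all 15 arrays with an intensity trend, contrasted 10 pairs of lines and adjusted p by Benjamini-Hochberg within a contrast.

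Adding 1 before the log slightly shrinks the fold of a dim gene, and any effect of background on it was not measured. The number of arrays limits the precision. The calls were tested on simulated data: of 200 of 12721 genes raised by 1.5 in SK-N-AS, 100% were recovered as marking it and 0 unchanged genes were. The simulated lines were equally bright and the raise exceeded the fold for a call. That run therefore checks the procedure and not the calls on arrays of unequal brightness. HOX genes were taken by symbol, and all 19 above the filter are given on every array. Up to 4 members of each further list with the widest range over lines are named. The members and lists were chosen with earlier results of these data known. RefSeq (GRCh38.p14) gave names, gene order and promoter windows. The alternatives tried were centred arrays, quantile normalization, equal medians of 100 ERCC spike-in probe sets, a pseudocount of 16, no filter, the mean over all probe sets of a gene, leaving out probe sets shared between transcripts, no intensity trend, the replicate number as a block and leaving out each array.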

Additional observations from a re-analysis of the deposited data

How the results depend on the processing

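Without a filter, without the intensity trend, with equal ERCC medians and without the probe sets shared between transcripts, the members called in each pair, called in any pair, marking a line and separating the MYCN classes stayed within 1.5 times their counts. The last 2 of these settings also left the counts per line against the median of all values within 1.5 times. Counts by cluster, by paralogue group, by direction, of flanking genes and of the other lists were not run under these settings. The ERCC medians lay between 4.69 and 4.92 (log2) over the arrays, while the median of the tested genes was shifted by -0.72 to 0.76. Setting the ERCC medians equal thus left most of the difference in brightness in place, and its result says little about that difference. Centred arrays gave 9 members called between SK-N-AS and NGP in place of 5, 7 between SK-N-AS and KELLY in place of 4, 3 between SH-SY5Y and KELLY in place of 5, and 8 at least at the median of all values in SK-N-AS in place of 15. Quantile normalization gave 8, 7, 3 and 9 for these, and 6 between SH-SY5Y and BE(2)-C in place of 10. A pseudocount of 16 gave 6 between SK-N-AS and BE(2)-C in place of 10. At 2 times the median of all values SK-N-AS counted 7 and SH-SY5Y 5, and at 4 times SK-N-AS counted 5, SH-SY5Y 3, NGP 6, BE(2)-C 6 and KELLY 3. Against each array's own median SK-N-AS counted 8. Centred arrays with 2 times the median, chosen after seeing the data, gave 6 in SK-N-AS and 8 in BE(2)-C. The shares of all genes at these other levels are not given here.

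SK-N-AS minus SH-SY5Y turned to -0.069 for HOXB13, -0.27 for HOXB4 and -0.24 for HOXD8 with centred arrays, and to -0.0096 for HOXB4 and -0.37 for HOXD8 with quantile normalization. Of 33 called differences of single genes, 22 kept the call with centred arrays, 8 lost it in the same direction and 3 turned. With a pseudocount of 16, 5 members marked a line, without HOXC9 and HOXC11. With all probe sets of a gene averaged, 6 did, without HOXC11 and HOXD10 and with HOXD8.

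Leaving out each array in turn gave ranges of 9 to 10 for SK-N-AS with SH-SY5Y, 5 to 7 with NGP, 9 to 10 with BE(2)-C and 4 to 5 with KELLY. For SH-SY5Y they were 6 to 6 with NGP, 8 to 11 with BE(2)-C and 5 to 6 with KELLY, for NGP 7 to 9 with BE(2)-C and 2 to 3 with KELLY, and for BE(2)-C with KELLY 6 to 6. Members called in any pair ranged from 17 to 18, those marking a line from 7 to 8 and those separating the MYCN classes from 0 to 0. Counts at least at the median of all values ranged from 14 to 15 for SK-N-AS, 7 to 8 for SH-SY5Y, 12 to 14 for NGP, 14 to 15 for BE(2)-C and 11 to 12 for KELLY.

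With the replicate number as a block, 18 members were called in at least 1 pair and 7 marked a line, as without it, and 0 of the 190 calls (19 members in 10 pairs) differed. Deviations of same-numbered arrays in different lines correlated from -0.23 to 0.23, over 0.1 in 5 of 30 pairs. Differently numbered arrays were not compared, so whether the numbers stand for a shared batch is not known.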
